A study of Mus musculus with 13 samples.

Results

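Alternative activation is the name given to the state that macrophages take up under interleukin 4 and interleukin 13, and 8 genes that mark it in the mouse, or that belong to the same families, were measured here in single cells of the lung. The 8 genes were Chil3, Chil4, Chil1, Chia1, Retnla, Retnlg, Arg1 and Mrc1. They were found by symbol among the 31053 genes of the count table, where each symbol occurred with its Ensembl identifier. The counts were unique molecular identifiers (UMIs), each standing for 1 captured RNA molecule. Levels are given as UMIs of the gene per 1000000 UMIs of a group of cells (CPM), with an exact 95% Poisson interval, and shares of cells with at least 1 UMI carry an exact 95% binomial interval. The intervals cover counting error alone.

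The labels name 13 lung samples. Of these, 1 each is named Asthma, Control, PPE-emphysema and PPE-recovery. The other names are Acute, Con and emphysema, with 3 samples of each. All were wild-type C57BL/6 mice as far as the study's methods tell. The asthma model was made by sensitising and challenging with ovalbumin, the emphysema model by weekly instillations of porcine pancreatic elastase (PPE) into the trachea with tissue taken days after the last of them, and the recovery model by a single instillation followed by weeks without treatment. In the acute injury model, tissue was taken days after a first PPE instillation. Control mice of the single-cell experiment also had weekly instillations into the trachea. The study describes single-cell sequencing of 1 mouse in each of the asthma, emphysema, recovery and control groups. The labels and the methods read here give no ages. The count table holds 37344 barcodes of 7 libraries that are known only by the number after each barcode, and no label ties a number to a group. Therefore no model was compared with the control, and the libraries are called by their numbers. Libraries 1, 2, 3 and 7 were used, with 20856 of 24344 barcodes kept after those with more than 10% mitochondrial UMIs were left out (4800, 7626, 5129 and 3301 cells). The median depth lay between 6800 UMIs per cell in library 3 and 8363.5 in library 2. Since a library has no replicate, differences between libraries are given as values without a test.

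Chitinase-like proteins are related to the enzymes that digest chitin, the polymer of insect cuticle and fungal walls. Chia1 encodes acidic mammalian chitinase, which cuts chitin. Chil1, Chil3 (Ym1) and Chil4 (Ym2) encode relatives that bind sugars without cutting them, and Ym1 is secreted in quantity by alveolar macrophages and can form crystals in the airways. Retnla and Retnlg encode small secreted proteins of the resistin-like family, RELMα and RELMγ. Arg1 encodes arginase 1, which turns arginine into ornithine and urea, and Mrc1 encodes the macrophage mannose receptor, an endocytic lectin at the cell surface. Interleukin 4 and interleukin 13 act through receptor chains that activate the transcription factor STAT6, and Arg1, Retnla and Chil3 are textbook targets of it in macrophages.

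Of the 8 genes, 5 lie in 2 groups of neighbours. On GRCm38 (mm10), Chia1 spans chr3:106113229-106132120 on the plus strand, Chil3 spans chr3:106147554-106167564 on the minus strand and Chil4 spans chr3:106201490-106219507 on the minus strand, so that 15433 bases separate Chia1 from Chil3 and 33925 bases separate Chil3 from Chil4. Retnla spans chr16:48842551-48844461 and Retnlg spans chr16:48872621-48874496, both on the plus strand and 28159 bases apart. Chil1 lies at chr1:134182176-134190181 (plus), Arg1 at chr10:24915221-24927484 (minus) and Mrc1 at chr2:14229392-14332057 (plus). The Chil3 and Chil4 transcripts were identical at 1452 of 1538 aligned bases (94.41%), with a longest shared run of 136 bases, and 17.07% of the 50-base windows in the last 500 bases of Chil3 occurred letter for letter in Chil4. How the authors' counting divided reads from such windows was not stated in the methods read here, so a low Chil4 level beside a high Chil3 level is uncertain. Retnla and Retnlg transcripts were identical at 84.5% of aligned bases with no shared window of 91 bases. The sequences just upstream of these neighbours are shown because the genes of a pair are close copies, also upstream, and their levels differed between groups of cells. They come from the RefSeq promoter table for GRCm38.p6, which held 7 of the 8 genes, Arg1 not among them. Each is written 5′ to 3′ on the strand of its gene, with matches to a STAT-type motif (TTCNNNGAA), a STAT6-type motif (TTC and GAA parted by 4 bases), a C/EBP-type motif (TTGCNNAA) or a PU.1-type motif (GAGGAAGT), on either strand, in capitals.
Chil3, chr3:106167565-106167814, minus strand: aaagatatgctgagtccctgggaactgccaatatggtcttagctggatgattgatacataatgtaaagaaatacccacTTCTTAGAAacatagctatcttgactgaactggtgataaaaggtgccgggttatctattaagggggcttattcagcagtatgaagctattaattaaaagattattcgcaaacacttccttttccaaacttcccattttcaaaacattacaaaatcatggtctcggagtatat
Chil4, chr3:106219508-106219729, minus strand: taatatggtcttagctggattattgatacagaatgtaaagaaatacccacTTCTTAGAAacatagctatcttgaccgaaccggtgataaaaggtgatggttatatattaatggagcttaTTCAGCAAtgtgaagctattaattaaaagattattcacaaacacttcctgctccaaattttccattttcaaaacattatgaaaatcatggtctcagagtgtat
Retnla, chr16:48842359-48842550, plus strand: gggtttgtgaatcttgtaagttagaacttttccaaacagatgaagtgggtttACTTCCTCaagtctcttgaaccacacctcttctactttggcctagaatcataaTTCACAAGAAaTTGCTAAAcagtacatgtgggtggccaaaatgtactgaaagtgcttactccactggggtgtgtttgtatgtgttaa
Retnlg, chr16:48872358-48872607, plus strand: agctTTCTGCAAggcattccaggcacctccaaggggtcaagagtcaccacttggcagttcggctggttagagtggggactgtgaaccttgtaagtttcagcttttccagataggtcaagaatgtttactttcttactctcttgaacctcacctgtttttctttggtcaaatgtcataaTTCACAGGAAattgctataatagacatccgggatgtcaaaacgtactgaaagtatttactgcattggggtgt

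Over the 300-base windows of the table, Chil3 and Chil4 were identical at 251 of 271 aligned bases (92.62%) and Retnla and Retnlg at 178 of 225 (79.11%). The same STAT-type letters stood in the windows of Chil3 and Chil4, and a STAT6-type match stood in those of Retnla and Retnlg. Of all 32851 promoters of the table, 8.3% held a match to the STAT-type motif, 6.95% to the STAT6-type motif, 10.8% to the C/EBP-type motif and 3.2% to the PU.1-type motif. A TATAAA match was present in 4 of the 7 member windows and in 13.6% of all promoters. These matches describe letters and not binding.

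The cells were grouped without use of the 8 genes. Clustering gave 46 clusters, of which 41 received 1 of 25 names from marker genes, and 766 cells stayed unnamed. Macrophages fell into 6 clusters that are given by number, since leading genes of some of them went against the name of their class. Clusters 9 (1045 cells; Marco, Fabp1 and Ear1 among its leading genes), 13 (585 cells; Fbp1, Mmp12 and Krt79) and 21 (288 dividing cells; Bub1 and Plk1) were named alveolar macrophage-like, though the highest marker score of cluster 21 was that of erythroid cells. Cluster 4 (1394 cells; Spp1, Gdf15 and Plet1) and cluster 8 (1149 cells; Ccl24, Mmp12 and Gpnmb) were named Mmp12-like, although Mmp12 itself stood at 122.9 CPM in cluster 4 and at 2912.5 CPM in cluster 8. Cluster 10 (746 cells) was named C1q-like from C1qa, C1qb and C1qc, which were among its leading genes with Folr2, Ccl8 and Pf4. The clusters were shared out unevenly, with 550 cells of cluster 13 in library 1, 883 cells of cluster 4 in library 2, 707 cells of cluster 9 in library 3, and 501 and 595 cells of cluster 8 in libraries 1 and 7 against 50 and 3 in libraries 2 and 3. Eosinophil-like cells (243, of which 211 in library 7 and 29 in library 1) held a median of 555 UMIs and carried Ccr3, Prg2 and Alox15, while Epx stood at 2 UMIs in all. Airway secretory-like cells numbered 122, from a cluster of median depth 40599 UMIs and one of 1857 UMIs. The level in T, B and NK cell-like cells (3073 cells) is given as a background of free RNA, except for Arg1, which cluster 12 among them carried. Free RNA adds UMIs to each droplet, so for shallow cells the UMIs per cell are given as well. Only 64 of 24280 barcode sequences occurred in more than 1 library.

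The 8 genes were found in different places. Chil3 was the gene of alveolar and Mmp12-like macrophages, Arg1 of cluster 8, and Mrc1 of all 6 macrophage clusters. Chil1 and Chia1 belonged to alveolar type 2 and airway epithelial cells, and Retnlg to neutrophil-like and eosinophil-like cells. Retnla was spread over epithelium, eosinophil-like cells, cluster 10 and a few cells of the dividing cluster 28, whose name is uncertain. Of all Chil3 UMIs, 44.38% lay in the alveolar class and 50.62% in the Mmp12-like class, which held 13.64% and 17.14% of all UMIs. Of the Chil1 UMIs, 87.49% lay in alveolar type 2-like cells, of the Retnlg UMIs 90.66% in neutrophil-like cells and of the Arg1 UMIs 82.41% in cluster 8. By contrast, no class held more than 31.62% of the Retnla UMIs.

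**Figure D1:**
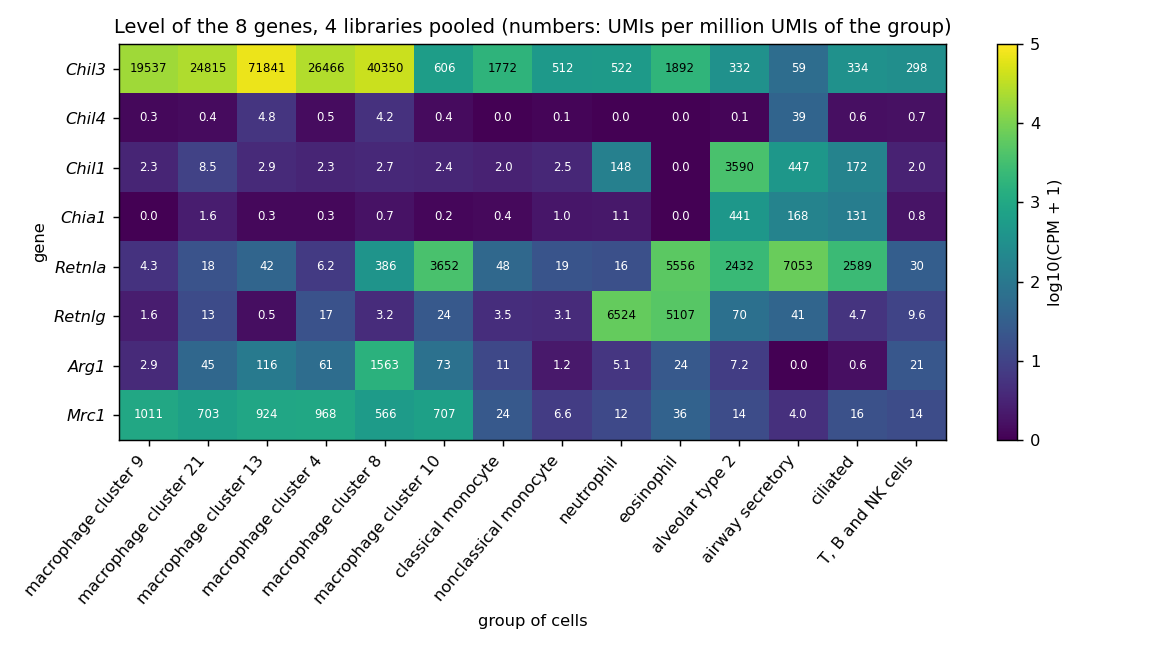
Heat map of the 8 genes (rows) in 14 groups of cells (columns), 4 libraries pooled; colour is log10(CPM + 1) and the printed number is the CPM. Chil3 reached 71841 CPM in cluster 13 and stood at 298 CPM in T, B and NK cell-like cells, Arg1 reached 1563 CPM in cluster 8, and Retnla reached 7053 CPM in airway secretory-like cells.

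Chil3 had 2120243 UMIs in the kept cells, counted from the 3′ end of the transcript. In cluster 9 it stood at 43877 CPM in library 1, 21529 in library 2, 15019 in library 3 and 36798 in library 7. The dividing cluster 21 had the same order, at 56325, 13708, 12516 and 36626 CPM, as had cluster 4 at 49037, 17148.5, 12931 and 41380 CPM. Libraries 1 and 7 were thus above libraries 2 and 3 in each of these 3 clusters. Their counting intervals did not overlap, but these leave out the scatter between cells and between animals. Cluster 4 had 20 cells in library 1 and 24 in library 3, where the highest cell held 23.17% and 27.32% of the Chil3 UMIs. Without that cell it stood at 41780 CPM in library 1 and 10115.5 CPM in library 3. Cluster 13 held the highest level, 70480 CPM in library 1 and 91648 CPM in library 7, and all of its 585 cells had a Chil3 UMI. Cluster 8 broke the order, at 14968 CPM in library 1, 15972 in library 2 and 76977 CPM in library 7. Hence cluster 8 was below cluster 9 in library 1 (ratio 0.341, 0.337 to 0.346) and above it in library 7 (2.09, 2.07 to 2.11). Cluster 8 was also the shallowest macrophage cluster in library 7, with a median of 4237 UMIs per cell against 10830 in library 1. After thinning every cell to 1500 UMIs, 81.92% of 929 cells of cluster 8 had a Chil3 UMI, against 99.9% of 1013 cells of cluster 9, 97.15% of 1368 cells of cluster 4 and 100% of 558 cells of cluster 13. The alveolar class as a whole stood at 34540 CPM, at 20647 CPM without library 1 and at 17204 CPM with a mitochondrial limit of 5%.

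Outside these clusters Chil3 was also read against free RNA. The unnamed cluster 15 (439 cells, median 753 UMIs; leading genes Epas1 and Gpihbp1) stood at 25582, 4665, 4714 and 17566 CPM in libraries 1, 2, 3 and 7, above cluster 8 in library 1. The unnamed cluster 34 (94 cells; leading genes Hey1 and Tek) stood at 10499 CPM, and cluster 20 (296 cells of the fibroblast-like class, median 1084 UMIs) at 5755.5 CPM, with 326 CPM in library 1 and 6598 CPM in library 2. These 3 clusters had genes of endothelial cells or fibroblasts in the lead. Per cell, cluster 15 held 21.04, 5.96, 4.12 and 19.14 Chil3 UMIs in libraries 1, 2, 3 and 7. Cluster 20 held 2.115, 46.08 and 9.05 in libraries 1, 2 and 3, and cluster 34 held 189.3 over all libraries. T, B and NK cell-like cells held 1.88, 2.45, 0.741 and 3.05 in libraries 1, 2, 3 and 7. The part of free RNA or mixed droplets in the Chil3 of these 3 clusters was not tested. T, B and NK cell-like cells held 317, 388, 136 and 344 CPM in libraries 1, 2, 3 and 7, and 50.02% of them had a UMI. Cluster 10 stood at 1025, 337, 121 and 471 CPM, below that background in libraries 2 and 3. After thinning to 1500 UMIs a Chil3 UMI was present in 20.8% of cluster 10 and 21.71% of the T, B and NK cell-like cells, a share no higher than background. Per cell, however, the deep cluster 10 (median 10168.5 UMIs) held 12.5, 3.285, 1.196 and 4.914 Chil3 UMIs in libraries 1, 2, 3 and 7. That is above the T, B and NK cell-like cells in each library, so the 2 measures differ. The 10% of cluster 10 cells with the most Chil3 held 85.35% of its UMIs, and the part of free RNA was not tested. Classical monocyte-like cells were above background in each library, at 1448, 1993, 1696 and 3387 CPM, or 4.56 to 12.5 times the T, B and NK cell-like level. Pooled over the libraries they held 1771.5 CPM, which was not the highest of the remaining groups. Alveolar type 1-like cells stood at 2065 CPM and the unnamed cluster 32 at 2323 CPM, with 1342 of 2113 and 311 of 633 UMIs in a single cell. The plasma cell-like cluster 38 (70 cells) held 6368 Chil3 UMIs. Nonclassical monocyte-like cells held 437, 667, 502 and 860 CPM, above background in each library, also in UMIs per cell. Neutrophil-like cells held 317 to 698 CPM, 1.80 to 2.33 times background. Per cell they had 1.78, 2.31, 1.18 and 2.28 Chil3 UMIs in libraries 1, 2, 3 and 7. T, B and NK cell-like cells had 1.88, 2.45, 0.741 and 3.05, so neutrophil-like cells were above this background in library 3 alone. Without cluster 12 the background was 1.561, 1.747, 0.743 and 3.465, and neutrophil-like cells were above it in libraries 1, 2 and 3. The per-cell reading thus depends on the background taken. A UMI was found in 48.92% of neutrophil-like cells at a median depth of 2878 UMIs against 50.02% of T, B and NK cell-like cells at 5049. Eosinophil-like cells held 986 CPM in library 1 (18 UMIs) and 2021 CPM in library 7 (292 UMIs). Per cell this was 0.621 and 1.38 UMIs, below the 1.88 and 3.05 of T, B and NK cell-like cells, so Chil3 in these shallow cells was not shown to exceed free RNA.

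Chil4 was close to absent. It had 248 UMIs in 100 of 20856 cells, against 2120243 UMIs of Chil3. Its highest class was the airway secretory-like one at 39.05 CPM (32.04 to 47.15), but 77 of the 108 UMIs there came from 1 cell of library 7, and without that cell the level was 11.21 CPM. In library 2 the airway secretory-like cells had 27 Chil4 UMIs in 5 of 35 cells (22.7 CPM), and the highest cell had 9. Cluster 13 had 35 Chil4 UMIs and cluster 8 had 50 (4.16 CPM) beside the high Chil3 levels of both, and with the shared stretches of the transcripts these values cannot be told from misplaced Chil3 reads.

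**Figure D2:**
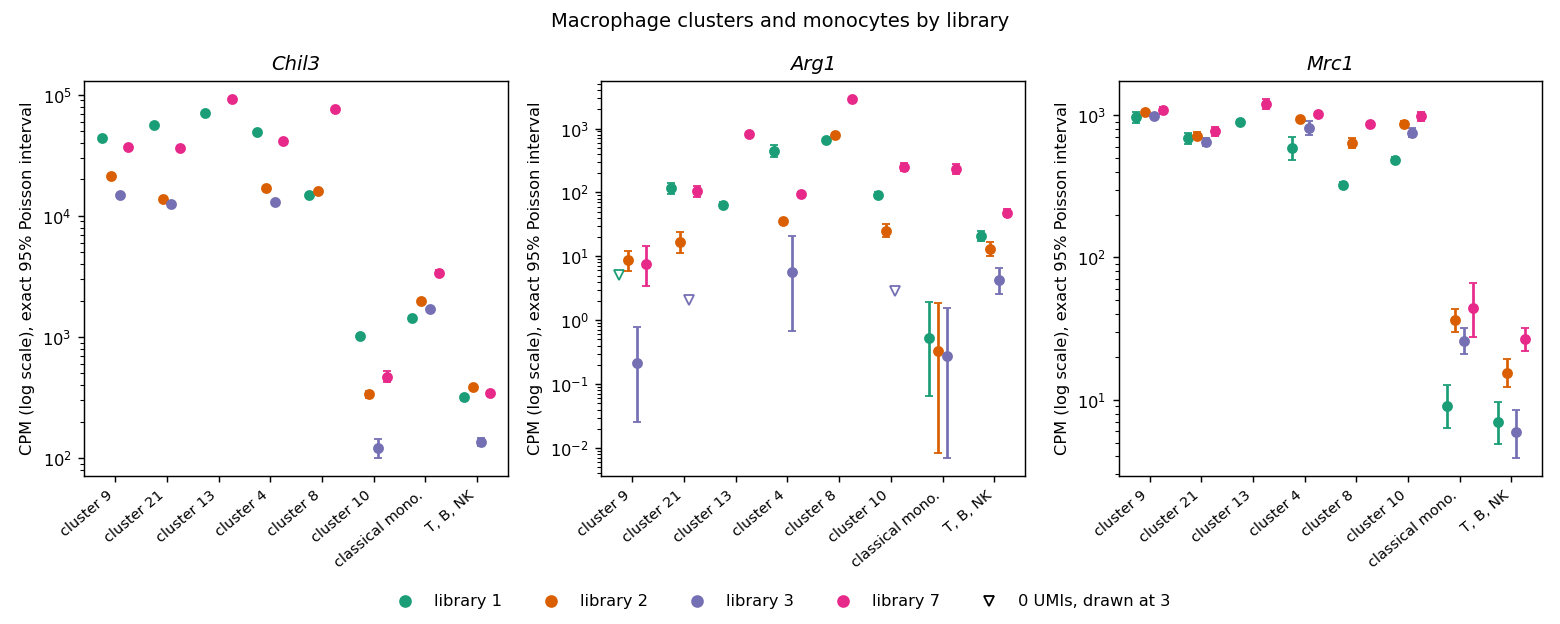
Levels of Chil3, Arg1 and Mrc1 in CPM on a log axis in 6 macrophage clusters, classical monocyte-like cells and T, B and NK cell-like cells; each point is a library with its exact 95% Poisson interval, and open triangles are libraries without a UMI, drawn at the level that 3 UMIs would give. The T, B and NK cell-like cells include the Arg1-bearing cluster 12. Mrc1 stayed between 324 and 1200 CPM in the 6 clusters, while Arg1 spanned 0 to 2852 CPM.

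Arg1 was concentrated in cluster 8. It stood at 658 CPM in library 1 (4097 UMIs in 501 cells), 797 CPM in library 2 (669 UMIs in 50 cells) and 2852 CPM in library 7 (14015 UMIs in 595 cells), so library 7 was 4.33 times library 1. Over the whole Mmp12-like class the level was 588 CPM, 254 CPM without library 7 and 947 CPM without library 2. An Arg1 UMI was found in 767 of 1149 cells. The 10% of cells with the most Arg1 held 63.83% of the UMIs, and the highest cell had 442. In cluster 9 the level was 2.91 CPM with 43 UMIs in all, so cluster 8 was 91.7 times cluster 9 in library 2 and 377 times in library 7. The ratio of library 2 rests on 1 cell of cluster 9 with 28 of its 32 Arg1 UMIs there. Without that cell, cluster 9 stood at 1.09 CPM in library 2 in place of 8.69 CPM. In library 1 cluster 9 had no Arg1 UMI, and 3 UMIs there would be 5.10 CPM. Cluster 13 held 63.23 CPM in library 1 and 813 CPM in library 7, cluster 4 held 448, 35.54, 5.67 and 95.62 CPM in libraries 1, 2, 3 and 7, and cluster 10 held 92.31, 25.31, 0 and 249 CPM. Some of these levels rest on few cells. Cluster 13 had 28 cells in library 7, and without the highest, with 153 of 422 UMIs, it stood at 559 CPM. Cluster 4 had 20 cells in library 1, where 2 cells held 59.57% of 94 UMIs, and 24 cells in library 3. In clusters 4 and 10 library 3 was the lowest, and over all its 5129 cells library 3 had 47 Arg1 UMIs (1.05 CPM) against 482 CPM in library 7, 116 in library 1 and 19.09 in library 2.

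Arg1 was present in some lymphocytes too. Of the 394 Arg1 UMIs in T cell-like cells, 388 lay in cluster 12 (602 cells, 109 CPM), and T, B and NK cell-like cells without cluster 12 held 1.93 Arg1 CPM. Cluster 12 was largely of T cells, with Cd3e in 78.74% and Trbc2 in 88.87% of its cells. A gate on Gata3, Il1rl1, Rora, Il17rb and Areg, markers of group 2 innate lymphoid cells, took 78 cells, all of them in cluster 12. Of these, 75 had a Gata3, 72 an Il1rl1, 5 a Cd3e, 3 a Trac, 16 a Cd3g and 61 a Trbc2 UMI. The gate asked for at least 3 of its markers and more of them than of any other list, T cell markers included. These marker counts thus follow in part from the gate and are no separate evidence of what the cells are. The gated cells held 330 Arg1 UMIs, or 721.5 CPM (645.8 to 803.7), in 63 of 78 cells (80.77%). By library the gated cells stood at 818 CPM (12 cells), 440 CPM (24 cells), 329 CPM (7 cells) and 950 CPM (35 cells) in libraries 1, 2, 3 and 7. Their level in library 3 was above that of each macrophage cluster with 20 cells or more in that library. The gated cells had no Chil1 or Chil4 UMI and 10 Retnla UMIs. Classical monocyte-like cells of library 7 had 116 Arg1 UMIs, of which 114 came from 1 cell.

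Mrc1 was present in all 6 macrophage clusters and differed little between libraries in cluster 9. Cluster 9 held 963 CPM in library 1, 1055 in library 2, 988 in library 3 and 1078 in library 7. Cluster 4 held 586, 942, 810 and 1026 CPM, cluster 21 held 685, 716, 651 and 770, and cluster 10 held 483, 873, 751 and 980. Cluster 8 held 324 CPM in library 1, 639 in library 2 and 861 in library 7, which was 0.336, 0.605 and 0.799 of cluster 9 in the same library. Thinned to 1500 UMIs, 77.1% of cluster 9 and 47.9% of cluster 8 had an Mrc1 UMI, against 1.20% of the T, B and NK cell-like cells. Outside macrophages Mrc1 was found in lymphatic endothelial-like cells at 361 CPM (104 of 150 cells) and in type 2 conventional dendritic-like cells at 144 CPM (220 of 505 cells). The unnamed cluster 34 held 584 CPM (91 of 94 cells) and cluster 20 held 285 CPM (53 of 296 cells). The highest marker score of cluster 34 was that of C1q macrophages, so it cannot be counted as outside macrophages. The part of free RNA or mixed droplets in the Mrc1 of these 2 clusters was not tested. T, B and NK cell-like cells held 13.55 CPM and neutrophil-like cells 11.64 CPM.

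Chil1 was an alveolar type 2 gene in these lungs. Alveolar type 2-like cells (396) held 6371 CPM in library 1, 3153 in library 2, 2404 in library 3 and 5144 in library 7, and 384 of them had a UMI. The UMIs were spread over the cells, with 35.91% of them in the 10% of cells that had the most. Airway secretory-like cells held 1141 CPM in library 1, 289 in library 2 and 203 in library 3, or 0.0845 to 0.179 of the alveolar type 2-like level. Neutrophil-like cells held 222, 118, 126 and 201 CPM, with a UMI in 459 of 1521 cells, against 1.26 to 2.38 CPM in T, B and NK cell-like cells. The ratio to that background lay between 49.8 and 104 in the 4 libraries. Eosinophil-like cells had no Chil1 UMI among 243 cells, and 3 UMIs there would be 18.2 CPM. Macrophage clusters 8 and 10 stood at 2.75 and 2.38 CPM.

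Chia1 was lower in alveolar type 2-like cells and was found in the same epithelial classes as Chil1. In alveolar type 2-like cells it stood at 1342 CPM in library 1, 229 in library 2, 306 in library 3 and 365 in library 7, with a UMI in 252 of 396 cells. In airway secretory-like cells it was at 1233 CPM in library 1 (417 UMIs in 26 of 30 cells), and at 12.61 and 14.78 CPM in libraries 2 and 3 with 15 UMIs in each. Library 1 was therefore 97.8 times library 2 in these cells. The level of a class weighs deep cells most. Over single cells of library 1, the median was 3466 CPM in airway secretory-like and 418 CPM in alveolar type 2-like cells. The shallow airway secretory-like cluster 45 (median 1857 UMIs) held 3341 CPM of Chia1 in library 1 (19 cells). Over all libraries it held 585.7 CPM of Chia1 and 150.9 CPM of Chil1. The ciliated-like cells of library 1 (12 cells) held 785 CPM against 24.91 to 31.24 CPM in the other libraries, and 79.71% of those UMIs lay in 2 cells. The 6 macrophage clusters held 0 to 1.55 CPM, with at most 9 Chia1 UMIs in a cluster.

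**Figure D3:**
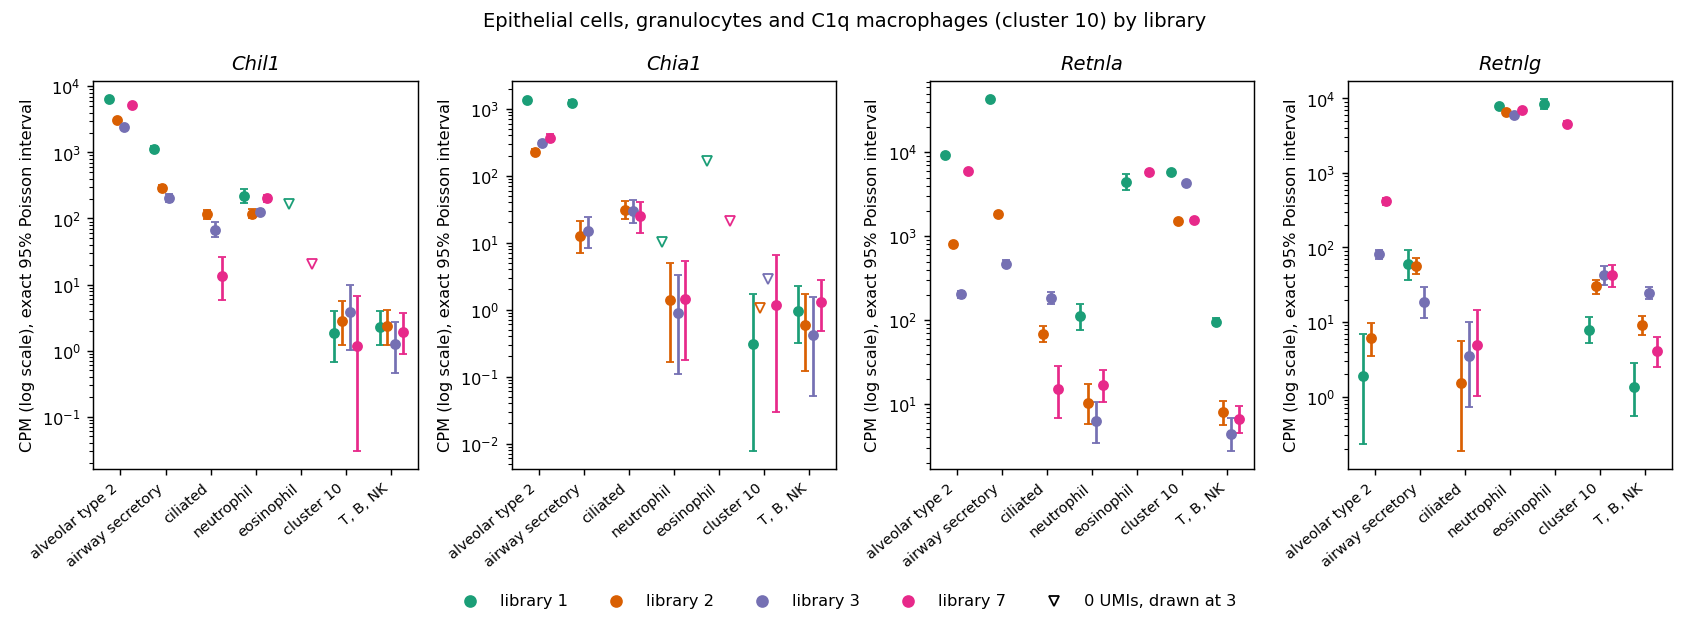
Levels of Chil1, Chia1, Retnla and Retnlg in CPM on a log axis in epithelial and granulocyte classes, macrophage cluster 10 and T, B and NK cell-like cells; each point is a library with its exact 95% Poisson interval, and open triangles are libraries without a UMI, drawn at the level that 3 UMIs would give. Retnla in airway secretory-like cells spanned 471 to 43056.5 CPM, while Retnlg in neutrophil-like cells spanned 5972 to 7905 CPM.

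Retnla differed widely between libraries. Airway secretory-like cells held 43056.5 CPM in library 1 (14564 UMIs, all 30 cells positive), 1865 CPM in library 2 (26 of 35 cells) and 471 CPM in library 3 (27 of 51 cells). Library 7 had 6 such cells with 2246 UMIs, of which 1616 were in 1 cell. Pooled, the class held 7053 CPM, but 2036 CPM when library 1 was left out, and eosinophil-like cells were then the highest class. Alveolar type 2-like cells held 9351, 818, 204 and 6029 CPM in libraries 1, 2, 3 and 7, and 48 of 52 cells of library 1 had a UMI against 22 of 140 of library 3. In library 7 the alveolar type 2-like level rested on a single cell with 2605 of 3897 UMIs, without which it was 2094 CPM. Eosinophil-like cells held 4438 CPM in library 1 (81 UMIs in 9 of 29 cells) and 5780 CPM in library 7 (835 UMIs in 83 of 211 cells), against 95.95 and 6.66 CPM in the T, B and NK cell-like cells of the same libraries. A single cell held 296 of the 498 Retnla UMIs of that background in library 1, which was 39.13 CPM without it. Neutrophil-like cells stood at 110.9 CPM in library 1 and 6.32 to 16.82 CPM elsewhere. The class named type 1 conventional dendritic-like had 7347 Retnla UMIs (7.95% of all), nearly all in its dividing cluster 28. The leading genes of cluster 28, such as Melk and Ube2c, held no marker of that class, so its name is uncertain. Cluster 18 of the same class, with Xcr1 and Clec9a in the lead, had 33 Retnla UMIs in 384 cells. Cluster 28 stood at 690, 2973 and 3548 CPM in libraries 1, 2 and 3, with a UMI in 31 of 93, 8 of 61 and 3 of 25 cells. A single cell held 2612 of the 3855 UMIs in library 2, and another 1187 of 2025 in library 3. Ciliated-like cells had 8329 Retnla UMIs (9.01% of all), of which 8070 were in the 12 cells of library 1 (18624 CPM). A single cell there held 3418 of them.

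In macrophages Retnla was a gene of few cells. Cluster 10 held 5802.5 CPM in library 1, 1522 in library 2, 4260 in library 3 and 1582 in library 7. Yet a UMI was found in only 231 of 746 cells and 10 or more UMIs in 130. Library 1 had the larger share, with a UMI in 151 of 270 cells and 10 or more in 89. The 10% of cells with the most Retnla held 76.6% of its UMIs in library 1, 99.79% in library 2, 96.18% in library 3 and 92.67% in library 7. The highest cell of cluster 10 had 1283 Retnla UMIs. Thinned to 1500 UMIs, 41.15% of cluster 10 cells of library 1 had a Retnla UMI, against 6.55%, 18.48% and 17.33% in libraries 2, 3 and 7 and 6.75% of the T, B and NK cell-like cells of library 1. Cluster 8 held 234 CPM in library 1, 32.17 in library 2 and 642 in library 7, and cluster 9 stood at 3.43 to 15.3 CPM. Since a few cells carry most UMIs, the Poisson intervals of Retnla are narrower than the scatter between cells.

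**Figure D4:**
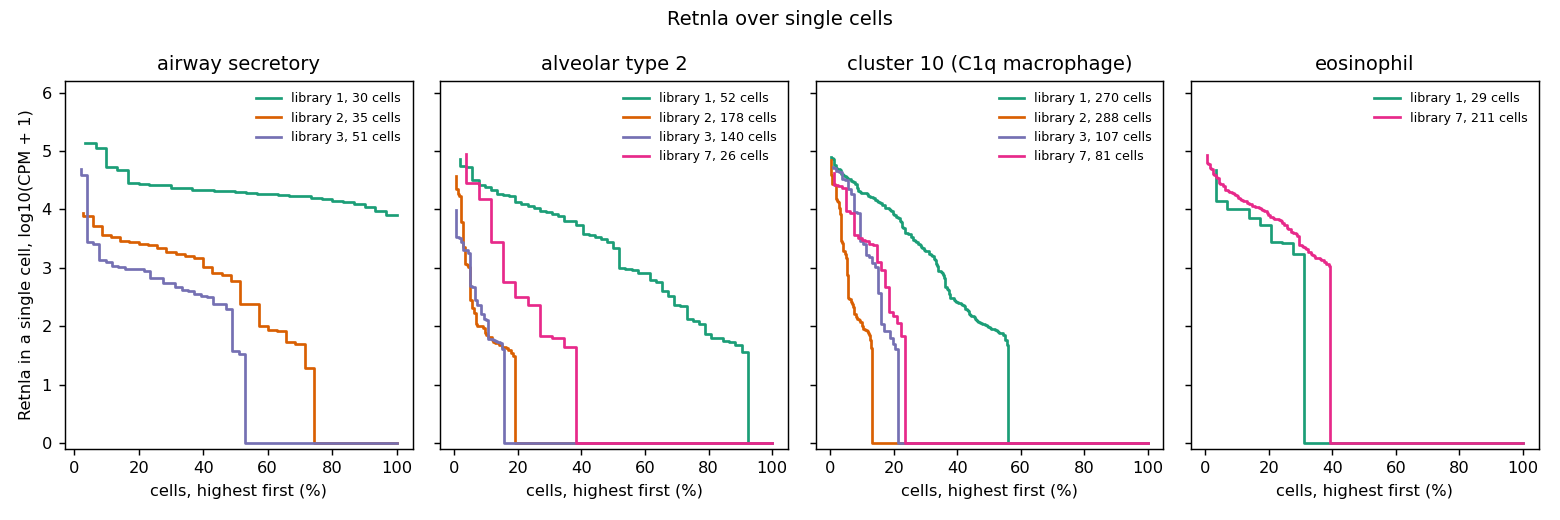
Retnla UMIs per 1000000 UMIs (CPM) in single cells of 4 groups, with 1 step line per library and its cells sorted from the highest level. Pooled over the libraries, 231 of 746 cluster 10 cells had a Retnla UMI, and in library 1 it was 151 of 270. All 30 airway secretory-like cells of library 1 had it.

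Retnlg was a granulocyte gene. Neutrophil-like cells held 7905 CPM in library 1, 6568 in library 2, 5972 in library 3 and 7070 in library 7, with a UMI in 1372 of 1521 cells. The larger neutrophil-like cluster 2 held 7525 CPM and the small cluster 33 (108 cells, median 9317 UMIs against 2797) held 2577 CPM. Eosinophil-like cells held 8492 CPM in library 1 (155 UMIs in 24 of 29 cells) and 4562 CPM in library 7 (659 UMIs in 128 of 211 cells), against 1.35 and 4.08 CPM in T, B and NK cell-like cells. Macrophage clusters were at 0.548 to 23.87 CPM. Thus Retnla and Retnlg, neighbours on chromosome 16, were both present in eosinophil-like cells, at 3.77 and 3.46 UMIs per cell against 0.192 and 0.0612 in T, B and NK cell-like cells, while neutrophil-like cells held 0.0559 Retnla and 22.84 Retnlg UMIs per cell. The neutrophil transcripts S100a8 and S100a9 stood at 97.05 and 552 CPM in the eosinophil-like cells against 50585 and 58235 CPM in cluster 2, while Retnlg was at 5107 against 7525 CPM.

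The comparison of cell groups was made over all genes of at least 20 CPM in either group, and a gene was counted when it differed at least 2-fold in the same direction in every library with 20 cells or more of both. For cluster 8 against cluster 9 (libraries 1, 2 and 7), 3.61% of 6428 genes were higher and 4.79% lower (8.4% in all). Of the 4 members tested (Chil3, Retnla, Arg1 and Mrc1), Arg1 and Retnla were higher and none was lower. For cluster 10 against cluster 9, 7.73% of 6685 genes were higher and 7.94% lower, and of 5 members tested Retnla and Arg1 were higher and Chil3 lower. In these counts a level of 0 was set to 3 UMIs. The Arg1 call rests on that in library 3, where cluster 10 had 0 and cluster 9 had 2 Arg1 UMIs, and it was lost when no fold was taken at or under 3 UMIs. For cluster 8 against cluster 10, 3.7% of 6242 genes were higher and 5.56% lower (9.26% in all), with Chil3 and Arg1 higher and Retnla and Retnlg lower. Mrc1 was counted in none of these 3 comparisons. By class in place of cluster, the Mmp12-like class against the alveolar class had 0.874% of 6293 genes higher and 1.18% lower (2.05% in all), with Arg1 higher, a call that was lost in the same way. The C1q-like class against the alveolar class had 7.36% higher and 6.82% lower (14.2% in all), with Retnla and Retnlg higher and Chil3 lower. The Retnlg calls of cluster 10, which is the C1q-like class, rest on few cells, as 23 of 746 had a UMI. In library 3 all 45 of its Retnlg UMIs lay in 1 cell, and in library 7 a single cell held 30 of 36. The Mmp12-like against the C1q-like class had 3.34% higher and 4.62% lower (7.96% in all), with Chil3 higher and Retnla lower. For classical against nonclassical monocyte-like cells, 3.28% of 5824 genes were higher and 3.12% lower (6.4% in all), and of 3 members tested Chil3 was higher, by 1.58 to 1.98 on the log2 scale.

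Comparisons with shallow or few cells had large shares of all genes called. For neutrophil-like against eosinophil-like cells, in libraries 1 and 7, 3.2% of 6123 genes were higher and 36.9% lower (40.1% in all), and of 6 members tested Retnla was lower, by 5.32 to 8.43 on the log2 scale. With no fold taken at or under 3 UMIs, 1121 genes in place of 2454 were called there, Retnla among them. For airway secretory-like against alveolar type 2-like cells, in libraries 1, 2 and 3, 2.16% of 5682 genes were higher and 44.7% lower (46.9% in all). Here Retnla was higher, 2.28 to 4.60 times the alveolar type 2-like level in each library, and Chil1 and Chil3 were lower. Of 6 members tested 2 were lower, beside the 44.7% of all genes. In library 1 the Chil3 call rests on 1 alveolar type 2-like cell with 633 of 695 UMIs. Without that cell the level was 60.11 CPM, against 103.5 CPM in airway secretory-like cells. In library 3, 14 of 140 alveolar type 2-like cells held 95.03% of the 784 Chil3 UMIs. Airway secretory-like cells held 103.5, 74.83 and 15.77 Chil3 CPM in libraries 1, 2 and 3, below the 317, 388 and 136 CPM of T, B and NK cell-like cells. The part of free RNA or mixed droplets in this call was not tested.

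Between libraries within a group of cells, the highest library was at least 4-fold over the lowest for 1.06% of 6034 genes in cluster 9, 1.68% of 5605 in cluster 8, 2.4% of 6048 in alveolar macrophage-like cells, 1.95% of 5743 in C1q-like cells, 0.919% of 5333 in classical monocyte-like cells, 2.87% of 4466 in neutrophil-like cells, 2.37% of 5532 in alveolar type 2-like cells and 3.72% of 2555 in airway secretory-like cells. The members fell at both ends. In cluster 8, Chil3 differed 5.14-fold, Arg1 4.33-fold, Retnla 19.96-fold and Mrc1 2.66-fold, beside a median of 1.39-fold over all genes tested there. In alveolar type 2-like cells Chia1 differed 5.87-fold, Retnla 45.8-fold and Chil1 2.65-fold, beside a median of 1.48-fold. Chil3 differed 5.92-fold there, from 659.8 CPM in library 1 to 111.4 CPM in library 7. In library 1 a single cell held 633 of the 695 Chil3 UMIs, and without it the level was 60.11 CPM, below library 7. Retnlg stood at 1.90 CPM (2 UMIs) in library 1 and 415 CPM in library 7, where its 268 UMIs came from 2 of 26 cells. In airway secretory-like cells Retnla differed 91.4-fold and Chia1 97.8-fold, and 0.274% and 0.235% of the genes tested differed as much. At the other end, Mrc1 in cluster 9 differed 1.12-fold and Retnlg in neutrophil-like cells 1.32-fold, and 95.53% and 79.11% of the genes tested there differed as much or more.

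Members were next compared within single cells, as the number of cells with a UMI of both genes over the number expected if detection were independent within each library. In cluster 8, thinned to 1500 UMIs, Arg1 and Mrc1 were found together in 290 cells where 250.9 were expected, a ratio of 1.16 (1.03 to 1.30). Arg1 and Chil3 were together in 444 cells against 413.4 (1.07, 0.976 to 1.18), and Arg1 and Retnla in 106 against 92.51 (1.15, 0.938 to 1.39). In cluster 10, Retnla and Arg1 were together in 12 cells against 11.68 (1.03, 0.531 to 1.80). In alveolar type 2-like cells thinned to 500 UMIs, Chia1 and Retnla were together in 20 cells against 11.73 (1.71, 1.04 to 2.63). At 1500 UMIs the interval held 1 for Chia1 and Retnla (1.38, 0.943 to 1.95).

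The genes most like each member were sought over 80 sums of a class in a library, from 25 classes, by Pearson correlation of log2(CPM + 10) among 13102 genes. The sums share libraries, so the values are descriptions. Chil1 was most like Sftpd (r = 0.915), Cxcl15 (0.912) and Tfcp2l1 (0.899). Chia1 was most like AA986860 (0.959), Kcnj15 (0.946) and Stx19 (0.933). Chil3 was most like Atp6v0d2 (0.875), F7 (0.865) and Tfec (0.831), and Mrc1 was most like Rab3il1 (0.869), Dab2 (0.862) and Bend6 (0.843). Retnlg followed Mmp9 (0.923), 9830107B12Rik (0.855) and S100a9 (0.851). Arg1 had no gene as close, with Rnase2a at 0.726, Ppargc1b at 0.681 and Slc36a1 at 0.675. Retnla had the loosest neighbours, Abcc3 (0.633), 0610040J01Rik (0.594) and 5330417C22Rik (0.584). For Chil4, with its few UMIs, the values were 0.881 for Pax9, 0.851 for Otx1 and 0.834 for Wdr72. With log2(CPM + 1) in its place, these fell to 0.679, 0.673 and 0.667, and none stayed among the first 3 for Chil4. Tfcp2l1, AA986860, Kcnj15, Tfec, Bend6, Ppargc1b, Slc36a1 and 5330417C22Rik also left the first 3 of their members. Between the members, on log2(CPM + 10), Chil1 and Chia1 stood at 0.87, Chil3 and Mrc1 at 0.685, Chil3 and Arg1 at 0.587, Retnla and Arg1 at 0.185 and Chil3 and Chil4 at 0.0227.

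The rest of the pathway was read from a list of 37 genes, of which 36 were used here and 31 reached 20 CPM in a class. By CPM the ligands were highest in granulocytes. Il4 stood at 431 CPM in eosinophil-like cells and 183 CPM in the class named from basophil and mast cell markers. Il13 stood at 104 CPM in that class, 42.46 CPM in eosinophil-like cells, 26.68 CPM in cluster 12 and 12.1 CPM in all T cell-like cells. T cell-like cells held 4.67% of all UMIs, the basophil and mast cell class 0.183% and eosinophil-like cells 0.0825%. The lower CPM in T cell-like cells thus stood for more Il13 UMIs. The receptor chains Il4ra, Il13ra1 and Il2rg were present in all 6 macrophage clusters at 27.44 to 135.9 CPM. Il4ra was highest in endothelial-like cells (168 CPM), Il13ra1 in neutrophil-like cells (165 CPM) and Il2rg in NK cell-like cells (241 CPM). The signalling genes Jak1, Jak3 and Tyk2 were highest in NK cell-like cells, at 790, 25.07 and 99.51 CPM, Stat6 in neutrophil-like cells at 143 CPM, and Socs1, a feedback inhibitor, in mature dendritic-like cells at 57.7 CPM and in cluster 8 at 25.55 CPM against 1.76 in cluster 9.

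Among the transcription factors, Pparg, which alveolar macrophages need, stood at 126.9 CPM in cluster 9 and 12.87 in cluster 10. Irf4 stood at 46.34 CPM in cluster 13, 34.21 in cluster 8, 31.0 in cluster 10, 11.44 in cluster 21, 5.80 in cluster 4 and 2.91 in cluster 9. By CPM, Egr2 was highest in eosinophil-like cells (254.8 CPM, 183.6 to 344.4) and stood at 108.7 CPM in cluster 8. The median depth was 555 UMIs in the former and 7066 in the latter, and UMIs per cell were not compared for Egr2. Klf4 was highest in nonclassical monocyte-like cells (879 CPM) and Myc in B cell-like cells (65.01 CPM). Among secreted targets, Ccl17 and Ccl22, chemokines for T cells, were highest in mature dendritic-like cells at 3975 and 3571 CPM, and Ccl17 reached 862 CPM in cluster 13, while Ccl24, an eosinophil chemokine, reached 505 CPM in cluster 8 and 208 CPM in cluster 10 and was at 0 in cluster 9. Igf1 stood at 365 CPM in cluster 10 and 325 CPM in cluster 8. The lectins Clec10a and Mgl2 were at 93.49 and 791 CPM in cluster 10 and at 234 CPM in plasmacytoid and 1436 CPM in type 2 conventional dendritic-like cells. In the arginine branch, the transporter Slc7a2 stood at 722 CPM in cluster 8, 803 CPM in cluster 13 and 448 CPM in cluster 9, Arg2 was a neutrophil-like gene (296 CPM), Odc1 was highest in ciliated-like cells (256 CPM), and Nos2, the marker of the opposite state, was at or below 5.07 CPM in the 6 clusters. Of the relatives, Chil5, Chil6, Chit1, Ovgp1 and Retnlb stayed below 10 CPM in every class, Chid1 and Ctbs reached 31.08 and 34.85 CPM and Retn 32.3 CPM in neutrophil-like cells. Mrc2 and Pla2r1 were fibroblast genes (226 and 83.42 CPM), and Ly75 stood at 244 CPM in cluster 9 and 2.5 in cluster 10.

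The rule of 2-fold in every library was also applied to this list. It was chosen with earlier results of these data known, so the counts and medians are descriptions. For cluster 8 against cluster 9, 4 of the 20 list genes tested were higher (Irf4, Ccl17, Ccl24 and Mgl2) and 1 was lower (Ly75). Of all genes 3.61% were higher and 4.79% lower, with a median log2 difference of 0.37 for the list beside -0.19 for all genes. For cluster 10 against cluster 9, 6 of 19 were higher (Il2rg, Irf4, Ccl24, Igf1, Clec10a and Mgl2) and 3 lower (Pparg, Slc7a2 and Ly75). Of all genes 7.73% were higher and 7.94% lower, with a median of 0.23 for the list beside -0.24. For cluster 8 against cluster 10, 4 of 21 were higher (Pparg, Ccl17, Slc7a2 and Ly75) and 2 lower (Clec10a and Mgl2). Of all genes 3.7% were higher and 5.56% lower, with a median of 0.09 for the list beside -0.01. Arg1 thus stood beside Ccl24 and Slc7a2 in cluster 8, where Ccl24 was higher than in cluster 9 in each library and Slc7a2 did not pass 2-fold.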

How the data were processed

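Lung tissue was dissociated and single cells were captured on the Chromium platform with 3′ tags. The labels name a version 3 kit and the study's methods version 2. The authors made the deposited table of UMI counts per gene and barcode with Cell Ranger and STAR on mm10, after reads were down-sampled across libraries, and the deposited counts were used as they are. The 7 libraries are pooled in 1 table without a map to samples, so no group was compared, no test was made and no p-value is given.

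Barcodes of libraries 1, 2, 3 and 7 with at most 10% mitochondrial UMIs were kept, with totals of 33298803 to 76435633 UMIs per library. Counts were scaled to 10000, 2000 variable genes without the 8 genes and 30 principal components were taken, and 20 neighbours were clustered by Leiden at resolution 1 (scanpy 1.11.5, leidenalg 0.10.2). Clusters were named from 27 marker lists, with 3 markers detected in 10% of cells. The naming rules, the sub-clustering at 0.5 and the description by cluster were settled after clusters had been seen. The members and lists were chosen with earlier results of these data known. Doublets called by Scrublet (33 to 428 cells per library) stayed in. The text names all 8 genes, the 3 genes most like each and the pathway list. Levels have exact 95% Poisson and shares exact 95% binomial intervals, and a count of 0 allows up to 3. UMIs per cell were added after the levels had been seen. To compare shares, cells were thinned to 1500 or 500 UMIs. Promoters come from RefSeq (GRCm38.p6) and loci from GENCODE (GRCm38). The rule for calls between groups was also run on simulated Poisson counts, drawn from the same profile in every library. Those counts had no scatter between cells, so the run says nothing about calls that rest on few cells. Python 3.11.15, numpy 2.4.6, scipy 1.17.1 and pandas 2.3.3 were used. Alternatives were other resolutions, components, filters, gates, depths, thresholds and each library left out.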

Additional observations from a re-analysis of the deposited data

Results flagged for a closer look

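Libraries 4, 5 and 6 (12762 kept barcodes) were in no comparison, and 6 of the 8 genes had more UMIs there than a count of 0 allows. Retnlg stood at 546.9 CPM and Chil3 at 402.2 CPM. Chil1 stood at 12.95 CPM, Mrc1 at 2.952 CPM, Retnla at 1.688 CPM (155 UMIs in 3 cells, all of library 5) and Arg1 at 0.5556 CPM. Chil4 had no UMI and Chia1 had 2. These cells were not assigned to classes, and the difference from the other libraries was not tested.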

How the results depend on the processing

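No paired analysis was possible because the columns of the count table carry no replicate numbers and no test was made. Over 17 alternatives a gene, 120 of 136 counts of libraries in which a gene's leading class was highest stayed within 1.5 times, but of 152 recomputed levels 49 stayed within the counting interval. Another class led in 14 settings, 5 of them for Chil3 (the Mmp12-like class at resolution 0.5, with the gate, with a mitochondrial limit of 5%, and without library 1 or 2), 2 each for Chil4, Chia1 and Retnla and 1 each for Retnlg, Arg1 and Mrc1. Airway secretory-like cells were highest for Chil4 in 1 library under the study's filter and under means over cells and in 0 with classes of at least 50 cells, and in 1 when library 1 or 2 was left out. For Retnla the count was 1 with the marker gate, 1 with the study's filter (eosinophil-like cells leading), 1 without doublet calls, 0 with classes of at least 50 cells, and 1 when library 1 or 2 was left out. For Arg1 it was 1 with the gate (cells gated as group 2 innate lymphoid leading). For Mrc1 it was 2 at resolution 0.5, 2 with each library clustered on its own, 2 with the study's filter and 1 with a mitochondrial limit of 5%. Thinned to 1500 and 500 UMIs, the shares with a UMI became 2.128% and 0.8333% for Chil4, 27.95% and 13.16% for Chia1, 57.45% and 47.5% for Retnla, 86.09% and 70.78% for Retnlg, 23.86% and 18.54% for Arg1, 73.87% and 36.4% for Mrc1, and at 500 UMIs 71.14% for Chil1 and 98.8% for Chil3. With a fold of 4, and with at least 100 CPM, genes called numbered 43 and 29 for Mmp12-like against alveolar macrophages, 465 and 403 for C1q-like against alveolar, 153 and 240 for Mmp12-like against C1q-like, 110 and 174 for the monocytes, 1057 and 757 for neutrophil-like against eosinophil-like, 574 and 648 for airway secretory-like against alveolar type 2-like, 218 and 221 for clusters 8 and 9, 501 and 478 for clusters 10 and 9, and 172 and 253 for clusters 8 and 10. A rule added after the data were seen, no fold at or under 3 UMIs, gave 1121 in place of 2454 for neutrophil-like against eosinophil-like cells and ended the Arg1 calls of cluster 10 against 9 and of the Mmp12-like against the alveolar class. Between libraries, with a fold of 2 and with at least 100 CPM, the counts were 753 and 39 for alveolar macrophages, 849 and 34 for C1q-like cells, 554 and 4 for classical monocytes, 1005 and 16 for neutrophils, 855 and 25 for alveolar type 2 cells, 547 and 28 for airway secretory cells, 569 and 28 for cluster 8, and 659 and 13 for cluster 9. Depth limits what can be seen in eosinophil-like cells, where 3 UMIs are 18.2 CPM.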
